A study of Mus musculus with 8 samples.

Results

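The genes described here are 45 endothelial and angiogenesis genes of mouse brown adipose tissue (BAT), among them the netrin receptor gene Unc5b, out of 56953 genes in the deposited count matrix. They were picked by gene symbol, and the list was selected on measured values in so far as Unc5b was included because it was lower in cancer-associated cachexia (CAC) than in controls (CTR) in this same contrast. The values of Unc5b are therefore given as a description, with no test, and the question asked was how its level compared with that of general endothelial markers. BAT RNA was sequenced from C57BL/6J WT mice of 8 to 10 weeks at the start, with 1 library per mouse and 4 mice per group. CTR mice received PBS. CAC mice received 3000000 Lewis lung carcinoma (LLC) cells under the skin of the right flank, were followed for 21 days, and entered the study only if a tumor grew. CAC thus stands for LLC tumor-bearing mice, with no second tumor line. The p-values below set the difference between the groups against the spread between these mice.

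The CTR libraries held 2454493 to 4827956 counts and the CAC libraries 1823167 to 3392538. A count of 0 allows up to 3 counts, which was 0.62 to 1.65 CPM (counts after scaling of the libraries to 1 size), a limit for counting error only. The 45 genes held 0.173% to 0.212% of the counts of a library. Mitochondrially encoded genes held 28.5% to 33.8%. Xist was at 0 or 1 count and the Y-linked gene Ddx3y at 115 to 303 counts in every library, the pattern of males in both groups. The 8 brown adipocyte markers, which check the tissue label, were at 15865 to 17535 CPM in total in CTR and 15397 to 17566 CPM in CAC. Marker genes of other cell types moved with the groups. The summed level of 6 neutrophil markers was 5.7 to 6.86 CPM in CTR and 160.5 to 424.0 CPM in CAC, and that of 10 macrophage markers was 149.6 to 183.2 CPM in CTR and 223.3 to 305.3 CPM in CAC. Most of the neutrophil sum in CAC was S100a8 and S100a9, at 173.0 and 72.8 CPM on average, which other cells can also express. Of the marker genes tested, 3 of 3 neutrophil and 2 of 7 macrophage genes rose in edgeR's test. Erythrocyte genes summed to 6119 to 19079 CPM in CTR and 14488 to 43880 CPM in CAC, and skeletal muscle genes to 878.8 to 2201 and 1931 to 3698 CPM. With an unadjusted edgeR p below 0.05, 4 of 5 erythrocyte and 4 of 7 skeletal muscle genes were on the higher side, with median log2 fold changes of 1.47 and 0.97. By adjusted p, edgeR called 0 of them and DESeq2 called 2 muscle genes, and the groups did not overlap for the muscle genes Myh4 and Pvalb. The summed ranges of these lists and of 10 pericyte and smooth muscle, 6 platelet, 7 fibroblast and 5 Schwann cell markers overlapped between the groups. 

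Endothelial cells line every vessel and keep a shared set of junction, receptor and transcription factor genes, so markers such as Pecam1 and Cdh5 report how much endothelial RNA a tissue sample holds. New vessels are led by tip cells that sense vascular endothelial growth factor (VEGF) through the receptor encoded by Kdr, while the receptor encoded by Flt1 binds the same ligand tightly and, in its soluble form, acts as a decoy. Guidance receptors such as UNC5B and ROBO4 and the Notch ligand DLL4 restrain sprouting, the Tie receptors and their activating ligand stabilise the vessel wall, and selectins and adhesion molecules on activated endothelium capture leukocytes. BAT has a dense capillary bed that delivers oxygen and fatty acids to its adipocytes.

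In CAC, Unc5b was 2.91-fold lower than in CTR, a log2 fold change of -1.54, while 15 general endothelial markers had a median log2 fold change of 0.07. Flt1 and Esam, both among these 15, rose. Of the 45 genes, 32 had enough counts for edgeR's quasi-likelihood test across 9876 genes, and 13 did not (Cldn5, Flt4, Angpt2, Efnb2, Ephb4, Dll4, Hey1, Sox17, Sox18, Icam1, Selp, Sele and Prox1). Without Unc5b, 31 members were tested. With an adjusted p below 0.05, 2 of these 31 (6.45%) were higher in CAC, against 0.739% of all genes tested, and 0 were lower, against 0.192%. In the fits that left out 1 library each, 0 to 2 members were called higher, with 0 without CTR replicate 1. With an unadjusted p below 0.05 the count was 8 higher (25.8%, against 7.01% of all genes) and 4 lower (12.9%, against 5.93%). These shares of all genes also stand beside the counts of the smaller gene groups and marker lists. DESeq2 and limma-trend each called Flt1 and Esam higher and 0 of the others lower. The 8 higher genes were Esam, Flt1, Plvap, Adgrl4, Vwf, Lyve1, Vcam1 and Mmrn2, and the 4 lower genes were Rgcc, Nos3, Kdr and Aplnr. The 4 CAC libraries all lay above the 4 CTR libraries for 5 tested members (16.1%, against 3.65% of all genes) and all below them for 2 (6.45%, against 3.4%). The median log2 fold change (log2FC, CAC against CTR) of the 31 members was 0.10, with 19 above and 12 below 0, and the median of all genes tested was 0.00. In whole tissue RNA, fewer endothelial cells and less RNA of a gene per cell cannot be told apart.

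**Figure D1:**
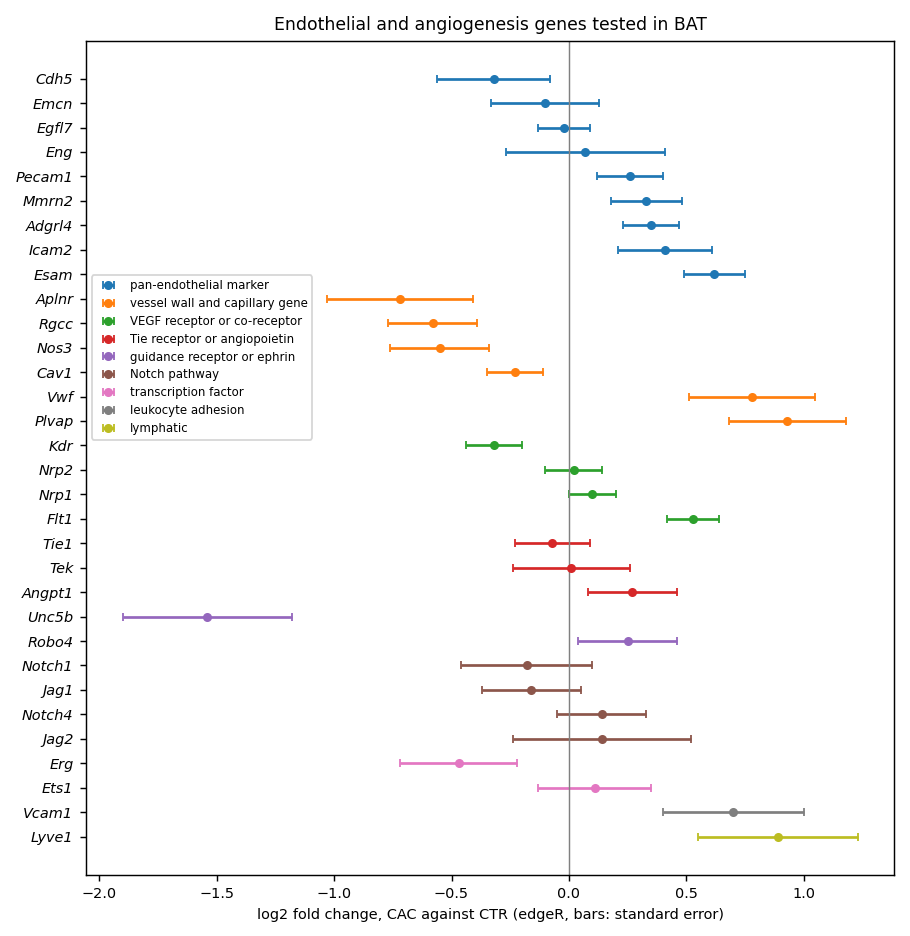
Log2 fold change of CAC against CTR (x axis) for the 32 members tested, grouped by role, with points for the edgeR estimate and bars for its standard error (SE) (n = 4 mice per group). Unc5b, which was included because it was lower in CAC in this contrast, lies at -1.54, below every other member. The others lie between -0.72 (Aplnr) and 0.93 (Plvap).

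Unc5b (ENSMUSG00000020099.9) encodes a receptor for netrins that sits on arterial, capillary and tip cell endothelium. Whether its RNA in BAT came only from endothelium was not tested. The gene lies on the minus strand of GRCm38 at chr10:60762593-60831581. The only annotated gene inside it is Gm19972, which shares no exon with it and had 0 counts in every library, and Unc5b held whole reads only in all libraries. Its counts were 16, 45, 24 and 27 in CTR replicates 1 to 4 and 4, 2, 15 and 8 in CAC replicates 1 to 4. Scaled to library size, this was 5.7, 11.9, 9.86 and 5.89 CPM in CTR and 2.14, 1.05, 4.35 and 2.76 CPM in CAC. The groups did not overlap, with CTR replicate 2 highest and CAC replicate 2 lowest. The mean was 8.33 ± 3.04 CPM (SD, n = 4) in CTR and 2.58 ± 1.38 CPM in CAC, and the log2FC was -1.54 (SE 0.36). This was the lowest of the members tested, but Unc5b was listed because it was lower in CAC. Unc5b also varied among CTR mice, with a coefficient of variation of 36.5%, against a median of 12.5% for the other tested members, and only 3 of those (Eng, Jag2 and Lyve1) varied more. Counting error alone would give 18.9% at its depth in CTR. In CAC the coefficient of variation was 53.5%, from 2 to 15 counts per library. The 2 counts of CAC replicate 2, or 1.05 CPM, were below the 1.65 CPM that a count of 0 allows there.

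The comparison with endothelial content used a reference of 16 pan-endothelial markers from the list: Pecam1, Cdh5, Kdr, Flt1, Tek, Tie1, Eng, Esam, Cldn5, Egfl7, Robo4, Icam2, Emcn, Erg, Mmrn2 and Adgrl4. Their summed level was 1431 to 1443 CPM in CTR and 1250 to 1704 CPM in CAC, so the CAC libraries lay on both sides of the CTR range. Of the 15 reference genes tested, 9 had a log2FC above 0 and 6 below 0, from -0.47 (Erg) to 0.62 (Esam), with a median of 0.07. The log2FC of Unc5b minus this median was -1.61. The median was 0.26 over the markers with at least 10 counts in every library and 0.17 with DESeq2. Per 1000 reference counts, Unc5b had 3.95, 8.23, 6.89 and 4.12 counts in CTR and 1.26, 0.689, 3.12 and 2.21 in CAC, with means of 5.8 ± 2.11 (SD, n = 4) and 1.82 ± 1.07. Relative to endothelial markers, every CAC library was thus below every CTR library. The ratio of the CAC to the CTR mean was 0.314. It is not a level per endothelial cell, since the cell source of the Unc5b RNA was not tested.

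Egfl7, a secreted endothelial protein gene, held 59.3% to 68.3% of the reference counts. Its exons overlap those of Agpat2 on the opposite strand, a lipid synthesis gene of adipocytes at 1640 ± 88.9 CPM (SD, n = 4) in CTR and 1483 ± 162 CPM in CAC, and 6 libraries had fractions of reads on Egfl7, so its counts may include reads of that neighbour. The comparison was therefore repeated without Egfl7, a choice made after seeing the data. The remaining 15 markers summed to 506.2 ± 32.7 CPM (SD, n = 4) in CTR and 551.6 ± 46.2 CPM in CAC. Per 1000 of their counts, Unc5b had 11.4, 21.8, 19.2 and 12.6 in CTR and 3.96, 1.75, 7.66 and 5.59 in CAC, and the groups again did not overlap. The ratio of the means was 0.292 without Egfl7, and 0.311 with a reference of 10 of the markers that still held Egfl7.

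**Figure D2:**
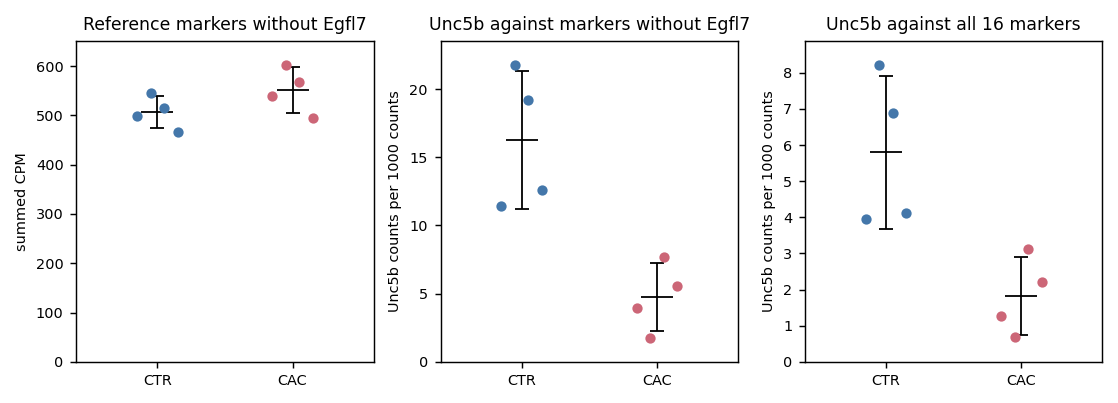
Summed CPM of the reference markers without Egfl7 (left), Unc5b counts per 1000 counts of those markers (middle) and per 1000 counts of all 16 markers (right), with 1 point per library, a line for the mean and bars for the SD (n = 4 mice). The marker sums overlap between CTR and CAC, at 506.2 and 551.6 CPM on average, while the Unc5b ratios of the CAC libraries all lie below those of the CTR libraries.

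The region before the start of Unc5b is shown beside those of Flt1 and Kdr, the VEGF receptor pair whose estimates had opposite signs, since ETS factors such as ERG and ETS1, whose genes are also members, are known regulators of endothelial genes. Of the 45 members, 28 matched the RefSeq promoter table of GRCm38.p6, with 34 windows. The lines give the bases just before the annotated start of each gene on its own strand, 5′ to 3′, at chr10:60831582-60831831 for Unc5b, chr5:147726012-147726261 for Flt1 and chr5:75978459-75978705 for Kdr, all on the minus strand. Capitals mark the ETS core GGAA or its reverse complement TTCC.
Unc5b: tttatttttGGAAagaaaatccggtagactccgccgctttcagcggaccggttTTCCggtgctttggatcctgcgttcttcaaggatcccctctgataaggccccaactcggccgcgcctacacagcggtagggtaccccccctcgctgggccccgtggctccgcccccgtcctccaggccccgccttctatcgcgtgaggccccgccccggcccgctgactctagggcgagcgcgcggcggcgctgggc
Flt1: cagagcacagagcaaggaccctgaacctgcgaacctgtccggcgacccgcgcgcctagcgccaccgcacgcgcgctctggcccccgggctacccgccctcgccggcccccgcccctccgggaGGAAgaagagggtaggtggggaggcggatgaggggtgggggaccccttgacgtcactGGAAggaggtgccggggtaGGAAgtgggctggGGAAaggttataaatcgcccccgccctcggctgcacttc
Kdr: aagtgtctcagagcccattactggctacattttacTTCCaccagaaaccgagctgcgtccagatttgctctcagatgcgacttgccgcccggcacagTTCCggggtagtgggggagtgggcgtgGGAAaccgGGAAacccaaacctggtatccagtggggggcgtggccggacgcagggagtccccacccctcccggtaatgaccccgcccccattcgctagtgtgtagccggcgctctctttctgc
Unc5b held 2 such cores, and Flt1 and Kdr held 4 each, against a median of 3 over the same length in all 32851 promoter windows and in the member windows. The core was common everywhere. On either strand, GGAA was found in 94.1% of the member windows of the full table length and 96% of all windows, and the longer form CCGGAA, which contains it, in 11.8% and 14.9%. TGGGAA, the core of the Notch effector RBPJ, which also contains GGAA, was found in 23.5% and 25.6%, the SOX core ACAAT in 23.5% and 31%, and the TATA box TATAAA in 20.6% and 13.6%. The GC box GGGCGG was found in 55.9% of member windows and 35.7% of all windows, and Unc5b and Kdr held 2 each and Flt1 3. The bases before the start were also richer in G and C in the member windows, with a median of 60.6% against 52.4% in all windows, and the part of this in the GC box shares was not tested. A match of letters is a description and not a bound site.

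Of the 16 reference markers, 10 belong to no receptor, guidance or transcription factor group below (junction and surface proteins, the secreted Egfl7 and the matrix protein Mmrn2), and 9 of them were tested. Esam rose, and the median log2FC was 0.26. An unadjusted p below 0.05 was found for 3 of the 9, including Esam, on the higher side and for 0 on the lower. Over all genes these shares were 7.01% and 5.93%. Esam (ENSMUSG00000001946.15, chr9:37528078-37538319 of GRCm38) encodes an adhesion molecule of endothelial tight junctions and platelets. It was at 39.2, 37.4, 38.6 and 40.8 CPM in CTR and at 48.7, 74.8, 53.1 and 64.6 CPM in CAC, and the groups did not overlap. The log2FC was 0.62 (SE 0.13, adjusted p = 0.0201 by edgeR), or 1.54-fold. The call was lost without CTR replicate 1 (adjusted p = 0.0716), CTR replicate 2 (0.0702), CAC replicate 2 (0.0792) or CAC replicate 4 (0.0627), with the log2FC between 0.51 and 0.71 over all 8 fits that left out 1 library. Platelet markers, which Esam could share, were at 20.7 to 31.2 CPM in CTR and 19.8 to 35.4 CPM in CAC.

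Adgrl4, an adhesion G protein-coupled receptor of endothelium, was at 57.7, 56.7, 70.7 and 52.0 CPM in CTR and at 72.3, 81.1, 76.6 and 71.5 CPM in CAC. The lowest CAC library lay just above the highest CTR library, and the log2FC was 0.35 (SE 0.12, adjusted p = 0.176 by edgeR). Pecam1, the classical marker CD31, was at 56.3, 77.5, 72.7 and 56.8 CPM in CTR and at 70.1, 90.0, 89.7 and 65.9 CPM in CAC. The groups overlapped, and the log2FC was 0.26 (SE 0.14, adjusted p = 0.426 by edgeR). Mmrn2, a matrix protein that binds VEGF, was at 20.3, 28.5, 18.9 and 20.3 CPM in CTR and at 29.4, 26.3, 28.4 and 27.6 CPM in CAC. The groups overlapped only through CTR replicate 2, and the log2FC was 0.33 (edgeR adjusted p = 0.361). Egfl7 was at 944.2, 896.4, 916.4 and 965.2 CPM in CTR and at 1164, 924.1, 828.7 and 755.7 CPM in CAC, with a log2FC of -0.02 (SE 0.11, adjusted p = 0.964 by edgeR). The CAC values of Egfl7 lay both above and below the CTR range.

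The remaining markers of this group had larger errors. Icam2, an adhesion molecule of resting endothelium, was at 10.4 ± 1.1 CPM (SD, n = 4) in CTR and 13.9 ± 2.82 in CAC, which gave a log2FC of 0.41 (edgeR adjusted p = 0.389). Cdh5, which encodes VE-cadherin of the adherens junction, was at 13.2 ± 2.66 and 10.3 ± 3.82 CPM (SD, n = 4), which gave a log2FC of -0.32 (edgeR adjusted p = 0.637), and CAC replicate 1 was lowest with 4.82 CPM. The sialomucin gene Emcn was at 19.8 ± 2.09 and 18.8 ± 7.4 CPM, and Eng, which encodes the TGF-β co-receptor endoglin, at 4.07 ± 1.73 and 4.43 ± 0.979 CPM (SD, n = 4), with log2FCs of -0.10 and 0.07 that lay within the spread between mice (edgeR adjusted p = 0.909 and 0.96). Both of these changed sign when single libraries were left out, between -0.29 and 0.16 for Emcn and between -0.12 and 0.43 for Eng. Cldn5, which encodes a tight junction claudin, had 0 to 7 counts per library and was not tested.

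**Figure D3:**
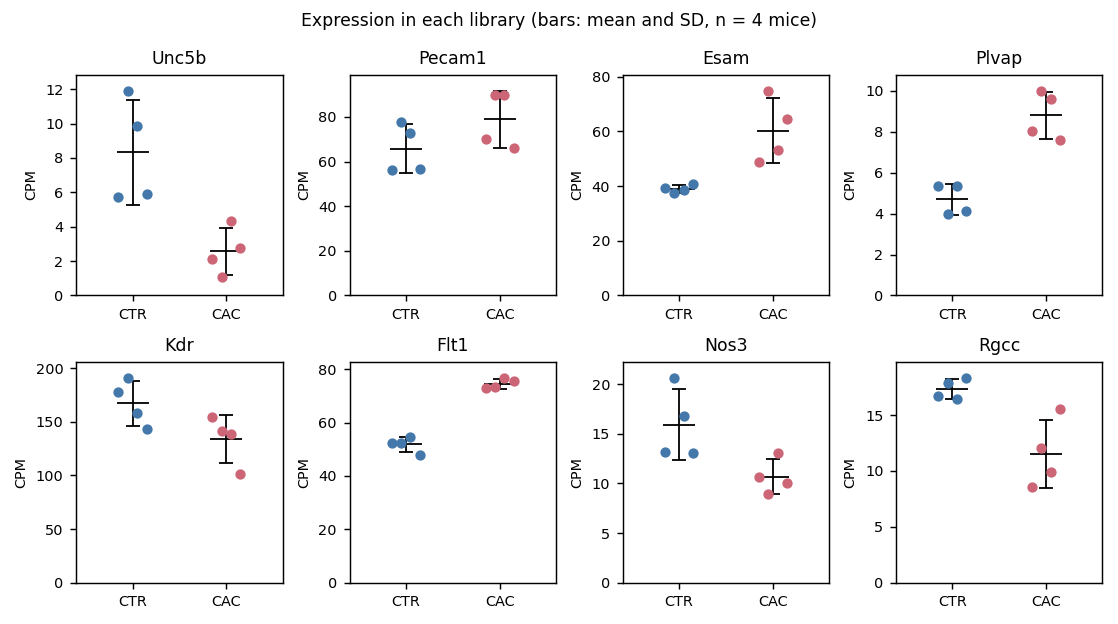
CPM of 8 members in each library (y axes from 0), with 1 point per mouse, a line for the mean and bars for the SD (n = 4 mice per group). The groups do not overlap for Unc5b, Nos3 and Rgcc, which lie lower in CAC, or for Esam, Plvap and Flt1, which lie higher, and they overlap for Pecam1 and Kdr.

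Genes of the vessel wall and of capillary endothelium lay on both sides, and 0 of 6 had an adjusted p below 0.05. An unadjusted p under 0.05 was found for 2 above and 3 below 0, against 7.01% and 5.93% of all genes. Plvap forms the diaphragms of fenestrae and caveolae and marks permeable vessels. It was at 5.34, 3.96, 5.34 and 4.15 CPM in CTR and at 8.03, 10.0, 9.58 and 7.59 CPM in CAC. The groups did not overlap, and the log2FC was 0.93 (SE 0.25, adjusted p = 0.0763 by edgeR), or 1.91-fold. With at least 10 counts required in every library, its adjusted p was 0.0412. Vwf, which encodes the clotting factor stored in endothelial granules and platelets, was at 3.21, 7.38, 4.52 and 4.8 CPM in CTR and at 8.03, 6.85, 10.2 and 9.32 CPM in CAC. Only CTR replicate 2 reached into the CAC range, and the log2FC was 0.78 (SE 0.27, adjusted p = 0.186 by edgeR).

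Rgcc, a cell cycle regulator enriched in capillary endothelium of adipose tissue, was at 16.7, 17.9, 16.4 and 18.3 CPM in CTR and at 8.56, 12.1, 9.87 and 15.5 CPM in CAC. All CAC libraries were below the narrow CTR range, and the log2FC was -0.58 (SE 0.19, adjusted p = 0.168 by edgeR). Nos3, the nitric oxide synthase of endothelium, was at 13.2, 20.6, 16.8 and 13.1 CPM in CTR and at 10.7, 8.95, 13.1 and 10.0 CPM in CAC. CAC replicate 3 and CTR replicate 4 both round to 13.1 CPM, so the groups were separate by less than the digits shown, and the log2FC was -0.55 (SE 0.21, adjusted p = 0.246 by edgeR). The exons of Nos3 overlap Atg9b and Gm15587 on the opposite strand, and the strand setting of the counting is not given in the sources used here. Aplnr, the apelin receptor of capillary and venous endothelium, was at 6.06, 7.65, 7.81 and 6.55 CPM in CTR and at 2.14, 6.85, 5.51 and 2.42 CPM in CAC. CAC replicate 2 lay inside the CTR range, and the log2FC was -0.72 (SE 0.31, adjusted p = 0.326 by edgeR). Cav1, the caveolin of endothelium and adipocytes, was at 100.9 ± 14.1 CPM (SD, n = 4) in CTR and 85.8 ± 9.81 in CAC, which gave a log2FC of -0.23 (edgeR adjusted p = 0.44).

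Among VEGF receptors, Flt1 rose while the estimate for Kdr was negative. Flt1 (ENSMUSG00000029648.14, chr5:147561604-147726011) was at 52.4, 52.5, 54.7 and 48.0 CPM in CTR and at 72.8, 73.2, 76.6 and 75.6 CPM in CAC. The values were tight within each group and far from overlapping. The log2FC was 0.53 (SE 0.11, adjusted p = 0.0166 by edgeR), or 1.44-fold, and 2 libraries had fractions of reads on the gene. The estimate stayed between 0.50 and 0.55 with each library left out, but the adjusted p passed 0.05 without CTR replicate 1 (0.057), CTR replicate 4 (0.051) or CAC replicate 3 (0.0557). Gene-level counts do not separate the membrane-bound from the soluble form of Flt1.

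Kdr (ENSMUSG00000062960.11, chr5:75932827-75978458), the main signalling receptor for VEGF in endothelium, was at 177.4, 190.7, 158.2 and 143.2 CPM in CTR and at 154.2, 141.1, 139.0 and 101.8 CPM in CAC. The groups overlapped through CAC replicate 1, and the log2FC was -0.32 (SE 0.12, adjusted p = 0.26 by edgeR). The log2 ratio of Flt1 to Kdr, which was looked at after these values were seen and is given as a description, was -1.76, -1.86, -1.53 and -1.58 in CTR and -1.08, -0.95, -0.86 and -0.43 in CAC, with means of -1.68 ± 0.15 (SD, n = 4) and -0.83 ± 0.28. Every CAC mouse thus had more Flt1 for its Kdr than every CTR mouse. The co-receptors that present VEGF and semaphorins had log2FCs of 0.10 for Nrp1 (192.5 ± 16.4 and 205.9 ± 16.8 CPM, SD, n = 4, edgeR adjusted p = 0.747) and 0.02 for Nrp2 (58.6 ± 8.32 and 59.7 ± 5.53 CPM, adjusted p = 0.966). Flt4, the VEGF-C receptor of lymphatic vessels, had 1 to 13 counts and was not tested. Of the 4 VEGF family ligands other than Vegfa, 2 were tested and 0 passed in edgeR, DESeq2 or limma-trend, with 1 below an unadjusted p of 0.05. It was Vegfb, a ligand of FLT1, at 218.9 ± 13.7 CPM (SD, n = 4) in CTR and 185.7 ± 7.85 in CAC, which gave a log2FC of -0.24 (edgeR adjusted p = 0.274). Vegfb was lower in every CAC library than in every CTR library.

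The Tie receptor genes and their ligands were tested in 3 of 4 cases, with 0 below an unadjusted p of 0.05 in edgeR. Tek, which encodes the angiopoietin receptor TIE2, was at 8.34 ± 2.13 CPM (SD, n = 4) in CTR and 8.71 ± 1.71 in CAC, which gave a log2FC of 0.01 (SE 0.25, adjusted p = 0.997 by edgeR). Its partner receptor gene Tie1 was at 23.2 ± 2.06 and 22.4 ± 4.27 CPM, which gave a log2FC of -0.07 (edgeR adjusted p = 0.912). Angpt1, the activating ligand made by mural cells, was at 14.1 ± 1.56 and 17.2 ± 4.51 CPM (SD, n = 4), which gave a log2FC of 0.27 (edgeR adjusted p = 0.61), with CAC replicate 2 highest at 23.7 CPM. Angpt2, the ligand that destabilises vessels, had 0 to 7 counts per library and was not tested.

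Of the 4 guidance receptor and ephrin genes, Unc5b and Robo4 had enough counts for the fit. Robo4, an endothelial receptor that stabilises vessels and binds UNC5B, was at 8.91, 11.6, 11.1 and 15.9 CPM in CTR and at 11.8, 11.6, 15.7 and 17.6 CPM in CAC. The groups overlapped, and the log2FC was 0.25 (SE 0.21, adjusted p = 0.667 by edgeR), opposite in sign to that of Unc5b. Efnb2, the arterial ephrin, and Ephb4, its venous receptor, were at 2.1 ± 0.789 and 2.42 ± 0.785 CPM (SD, n = 4) in CTR and at 1.86 ± 0.816 and 2.89 ± 1.7 CPM in CAC, and neither was tested. Of 15 genes for ligands, other receptors and partners of UNC5 proteins, 4 were tested and 0 had an adjusted p below 0.05 in edgeR, DESeq2 or limma-trend, or an unadjusted p below 0.05 in edgeR. The smallest p belonged to Dapk1, a death-associated kinase that binds UNC5 receptors, at 10.8 ± 2.08 CPM (SD, n = 4) in CTR and 7.67 ± 3.32 in CAC, which gave a log2FC of -0.57 (edgeR adjusted p = 0.388). The main UNC5B ligand gene Ntn1 had 3, 2, 0 and 1 counts in CTR and 5, 2, 0 and 0 in CAC, too few to compare. The netrin receptor genes Dcc and Unc5d and the netrin gene Ntn5 had 0 counts in all 8 libraries, and Unc5a and Unc5c stayed under 1 CPM on average in both groups.

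The other guidance pathways had 0 genes with an adjusted p below 0.05 in either direction, by edgeR, DESeq2 or limma-trend, and 1 with an unadjusted p below 0.05 in edgeR. This held for 2 tested of 9 SLIT and ROBO genes, 4 of 12 semaphorin and plexin genes and 3 of 9 further ephrin and Eph genes. That 1 gene was Plxna1, a semaphorin receptor, with 14.9 ± 4.14 CPM (SD, n = 4) in CTR and 9.36 ± 2.06 in CAC, which gave a log2FC of -0.70 (edgeR adjusted p = 0.179). Srgap2, which relays ROBO signals to the cytoskeleton, had a log2FC of 0.18 (edgeR adjusted p = 0.767), and Efna5, an ephrin, of 0.45 (adjusted p = 0.434).

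Notch members, which set tip and stalk cell fate and arterial identity, had estimates smaller than their SE, and 0 of 4 tested had an unadjusted p below 0.05. The receptor genes Notch1 and Notch4 had log2FCs of -0.18 (SE 0.28) and 0.14 (SE 0.19), and the ligand genes Jag1 and Jag2 of -0.16 (SE 0.21) and 0.14 (SE 0.38), with edgeR adjusted p of 0.815 to 0.925. Jag1 was at 9.95 ± 0.746 CPM (SD, n = 4) in CTR and 8.85 ± 0.602 CPM in CAC, and the groups overlapped. The tip cell ligand gene Dll4 had 1 to 11 counts and the Notch target Hey1 had 1 to 8 counts per library, and neither was tested. Of 13 other Notch pathway genes, 8 were tested and 0 passed in edgeR, DESeq2 or limma-trend, with 1 below an unadjusted p of 0.05. This was Hes1, a Notch target that is active in many cell types, at 7.18 ± 2.53 CPM (SD, n = 4) in CTR and 3.15 ± 1.13 in CAC, which gave a log2FC of -1.24 (edgeR adjusted p = 0.0763). The groups did not overlap, and with low-count genes kept its adjusted p was 0.0131, on the lower side. Of 12 BMP and ALK1 pathway genes, which quiet endothelium together with Notch, 8 were tested with 0 past the threshold in the same 3 tools and 1 on each side below an unadjusted p of 0.05, and Id2, a target of this pathway that adipocytes also express, had the smallest p, with a log2FC of -0.66 (edgeR adjusted p = 0.111, and 4.16e-05 with low-count genes kept). The groups overlapped for Id2, which had 85 to 429 counts per library. The fit with low-count genes kept called 351 genes, against 92 in the main fit.

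Of the 4 endothelial transcription factor genes, 2 were tested and 0 had an unadjusted p below 0.05. Erg, which maintains endothelial identity, was at 8.55, 10.0, 7.81 and 8.73 CPM in CTR and at 3.21, 7.9, 6.67 and 7.25 CPM in CAC. Only CAC replicate 2 reached the CTR range, and the log2FC was -0.47 (SE 0.25, adjusted p = 0.451 by edgeR). Ets1 was at 7.12 ± 0.777 CPM (SD, n = 4) in CTR and 7.33 ± 1.78 in CAC, which gave a log2FC of 0.11 (edgeR adjusted p = 0.902). Sox17, a factor of arterial endothelium, was below the limit for testing with 7, 8, 8 and 13 counts in CTR and 6, 11, 15 and 14 counts in CAC, or 2.68 ± 0.501 and 4.55 ± 1.07 CPM (SD, n = 4). The groups overlapped at their edge. Sox18 had 0 to 2 counts per library.

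The adhesion genes that capture leukocytes had few counts, and Selp was the member outside the test whose groups did not overlap. Selp encodes P-selectin, which endothelial granules and platelets release to the surface. Its rounded counts were 0, 0, 0 and 2 in CTR and 5, 6, 10 and 4 in CAC, or 0.109 ± 0.218 and 2.53 ± 0.791 CPM (SD, n = 4). Every CAC library was above every CTR library, but 3 CTR libraries were at 0, which allows up to 1.22 CPM, and the CAC values were only 1.38 to 3.16 CPM. When genes with low counts were kept, edgeR's adjusted p for Selp was 0.00104 in a fit that called 351 of 23730 genes (0.923% of all genes higher and 0.556% lower). Selp shares exons with Gm16587 and Gm16548 on the opposite strand, and 3 libraries had fractions of reads on it. The summed platelet markers overlapped between the groups, as given for Esam, with Pf4 at 23.0 ± 3.33 CPM (SD, n = 4) in CTR and 22.5 ± 5.57 CPM in CAC (edgeR log2FC 0.00, adjusted p = 0.997). Pf4 made up most of that sum. Itga2b, a platelet integrin gene with 4 to 10 counts per library and too few for the test, was at 1.64 to 2.18 CPM in CTR and 2.63 to 3.11 CPM in CAC, without overlap, and with low-count genes kept its log2FC was 0.50 (edgeR adjusted p = 0.699).

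Vcam1, whose protein binds integrins of monocytes and lymphocytes, was at 2.85, 3.43, 3.29 and 2.84 CPM in CTR and at 4.28, 5.27, 4.64 and 5.87 CPM in CAC. The groups did not overlap, and the log2FC was 0.70 (SE 0.30, adjusted p = 0.315 by edgeR), from 8 to 17 counts per library. Sele, which encodes E-selectin, had 0, 2, 3 and 2 counts in CTR and 1, 3, 9 and 5 in CAC, and Icam1, a ligand of leukocyte integrins, had 2, 4, 0 and 4 in CTR and 2, 4, 4 and 2 in CAC. Both overlapped and were not tested. The genes S100a8, S100a9 and Retnlg of the neutrophil list rose in the same CAC libraries, with log2FCs of 5.57, 5.45 and 3.40 (edgeR adjusted p = 0.00514, 0.000181 and 0.0156), and the defining neutrophil genes Cxcr2 and Ly6g were at 1.85 ± 0.744 and 0.206 ± 0.258 CPM in CAC (SD, n = 4) and at 0 in CTR. Cxcr2 had 2, 5, 8 and 4 counts in CAC replicates 1 to 4, and with low-count genes kept its edgeR adjusted p was 0.000729. Ly6g had only 1, 0, 1 and 0 counts in CAC, within what a count of 0 allows, and shows no difference (edgeR adjusted p = 0.62 in that fit). Csf3r of the same list had 0, 2, 0 and 1 counts in CTR and 6, 1, 4 and 2 in CAC. Its groups overlapped, with an edgeR adjusted p of 0.27 in that fit.

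**Figure D4:**
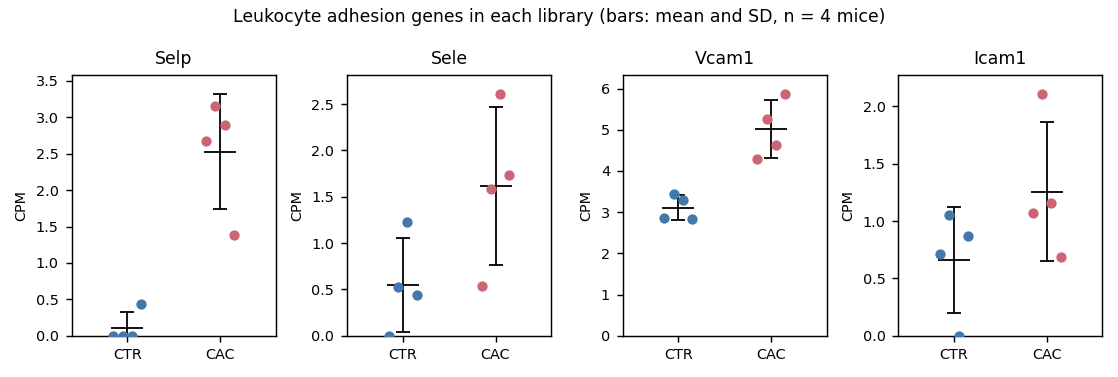
CPM of 4 leukocyte adhesion genes in each library (y axes from 0, so that a lower SD limit below 0 is not drawn), with 1 point per mouse, a line for the mean and bars for the SD (n = 4 mice per group). Selp and Vcam1 do not overlap between CTR and CAC, at 0.109 against 2.53 CPM and at 3.1 against 5.01 CPM on average, and Sele and Icam1 do.

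Of the lymphatic genes, Lyve1, a hyaluronan receptor of lymphatic endothelium and of some tissue macrophages, was at 7.13, 4.75, 3.29 and 9.17 CPM in CTR and at 5.89, 7.37, 17.7 and 13.1 CPM in CAC. CAC replicates 3 and 4 were above all CTR libraries and the other CAC libraries inside their range, and the log2FC was 0.89 (SE 0.34, adjusted p = 0.28 by edgeR). With low-count genes kept, its adjusted p was 0.0372. The log2FC was 0.54 without CAC replicate 3 and 1.2 without CTR replicate 4. Prox1, the master regulator of lymphatic identity, had 1, 3, 7 and 1 counts in CTR and 1, 0, 4 and 2 in CAC and was not tested. The other 5 lymphatic markers summed to 5.34 to 10.0 CPM in CTR and 9.1 to 17.7 CPM in CAC, with Pdpn first (log2FC 0.76, edgeR adjusted p = 0.21) and Foxc2 at 0 in every library. The macrophage genes C1qa and C1qb rose by log2FCs of 0.83 and 0.98 (edgeR adjusted p = 0.00103 and 0.00138), and their part in the Lyve1 and Vcam1 values was not tested.

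Endothelial genes outside the list were examined beside the reference. Of 24 such genes, 16 were tested, 0 had an adjusted p below 0.05 in edgeR, DESeq2 or limma-trend, and 2 above and 2 below 0 had an unadjusted p under 0.05, with a median log2FC of 0.15. The smallest p belonged to Cd34, a sialomucin of capillaries and of adipose progenitors, at 20.7 ± 0.267 CPM (SD, n = 4) in CTR and 33.3 ± 9.68 in CAC, which gave a log2FC of 0.69 (SE 0.17, adjusted p = 0.0623 by edgeR). Every CAC library was above every CTR library, and with low-count genes kept its adjusted p was 0.00404. On the lower side, named after their values were seen, Bcl6b, a transcriptional repressor gene, had a log2FC of -0.90 (edgeR adjusted p = 0.294) and overlapped between the groups. Myct1 had too few counts for the test, at 3.97 CPM on average in CTR and 1.6 CPM in CAC, with every CAC library below every CTR library. With low-count genes kept, its log2FC was -1.30 (edgeR adjusted p = 0.129). The summed level of the 24 genes was 590.7 to 685.8 CPM in CTR and 655.8 to 784.2 CPM in CAC, and the ranges overlapped. A large part of this sum was Aqp1, the other gene above 0 with an unadjusted p under 0.05. Aqp1 was at 283.4 ± 29.3 CPM (SD, n = 4) in CTR and 367.8 ± 68.2 in CAC. Its groups overlapped, and the log2FC was 0.37 (edgeR adjusted p = 0.155).

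Of the marker lists for other cell types, those without a called gene are given by the gene with the smallest p. Of 10 pericyte and smooth muscle genes tested, 0 were called by edgeR, DESeq2 or limma-trend, and 1 above and 2 below 0 had an unadjusted p under 0.05 in edgeR. Pdgfrb, the receptor through which endothelium recruits pericytes, was at 8.05 ± 1.09 CPM (SD, n = 4) in CTR and 4.97 ± 1.91 in CAC, with every CAC library below every CTR library and a log2FC of -0.67 (edgeR adjusted p = 0.285). The other such genes were Kcnj8, a potassium channel gene of pericytes, with a log2FC of -0.47 (edgeR adjusted p = 0.296), and Myh11, a smooth muscle myosin gene, with 0.66 (adjusted p = 0.36). The smooth muscle gene Tagln did not overlap either, higher in CAC, with a log2FC of 0.45 (edgeR adjusted p = 0.511). Of the 8 brown adipocyte markers, 0 were called by the same 3 tools, and 2 below 0 had an unadjusted p under 0.05 in edgeR. Plin1, which encodes a lipid droplet coat protein, was lower in every CAC library than in every CTR library, with a log2FC of -0.27 (edgeR adjusted p = 0.192). Pparg, the adipocyte master regulator, which overlapped between the groups, had a log2FC of -0.71 (edgeR adjusted p = 0.261, and 0.000372 with low-count genes kept). In the erythrocyte, fibroblast and Schwann cell lists the smallest p belonged to Hbb-bt (log2FC 1.66, edgeR adjusted p = 0.28), Col3a1 (-0.59, adjusted p = 0.423) and Mbp (0.21, adjusted p = 0.57), and all 3 overlapped. The part of the marker genes of other cell types in the endothelial values was not tested.

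In the fits that left out 1 library each, the log2FC of Unc5b stayed between -1.97 (without CAC replicate 3) and -1.29 (without CTR replicate 2), and the median of the reference markers between 0.00 and 0.20. The ratio of the CAC to the CTR mean of Unc5b per 1000 reference counts stayed between 0.239 and 0.379. Of the single reference markers, Kdr stayed between -0.39 and -0.20, Robo4 between 0.14 and 0.46, Cdh5 between -0.45 and -0.12 and Erg between -0.56 and -0.29. Egfl7 (-0.15 to 0.07), Tek (-0.11 to 0.20) and Tie1 (-0.18 to 0.02) changed sign, as did Emcn and Eng. Pecam1, Icam2, Mmrn2 and Adgrl4 stayed above 0, between 0.19 and 0.49. Of the remaining members with an unadjusted p below 0.05, Plvap, Vwf and Vcam1 stayed above 0, between 0.61 and 1.04, and Rgcc, Nos3 and Aplnr below 0, between -0.95 and -0.39.

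**Figure D5:**
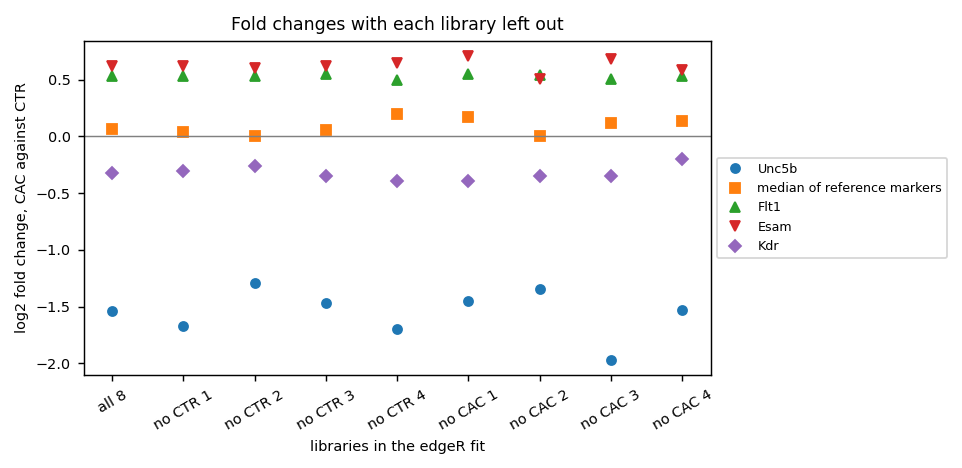
Log2 fold change of CAC against CTR (y axis) in the edgeR fit of all 8 libraries and in the 8 fits that each left out 1 library (x axis), for Unc5b, Flt1, Esam, Kdr and the median of the reference markers. Unc5b stays between -1.97 and -1.29 in every fit, below the reference median, which stays between 0.00 and 0.20.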

How the data were processed

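The authors checked reads with FastQC 0.11.9, aligned them to mm10 with HISAT2 2.2.1 and counted them with featureCounts with its multi-mapping option. The deposited table holds expected counts for 56953 genes, with 25.1% to 28.4% of nonzero values of a library not whole. The deposited normalized values of 24792 genes are a signal from the DESeq2 run of the authors, equal to the count without its decimals divided by a size factor (tolerance 1e-06). Counts were rounded, filtered by filterByExpr, scaled by TMM and tested with edgeR 4.0.16 (robust quasi-likelihood, no covariate, Benjamini-Hochberg, threshold 0.05) in R 4.3.3, after a check on simulated data. CPM used the TMM library sizes and are not scaled by gene length, so levels of different genes were not compared. Coordinates are from GENCODE M21, in which all 45 members were found by ID, and 13 of them share exon positions with other genes.

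The members and gene lists were chosen with earlier results of these data known. Every member is named, and of each further list the genes past the threshold or else the gene with the smallest p. Other genes, named after their values were seen, serve as checks. Alternatives were DESeq2 1.42.0, limma-trend (limma 3.58.1) on the signal with 1 added, scaling by library size or upper quartile, no filter, a minimum of 10 counts per library, a block for the replicate number, and each library left out. Protein sequences were not used here. Plots used Python 3.11.15 and matplotlib 3.10.9.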

Additional observations from a re-analysis of the deposited data

Results flagged for a closer look

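Among the 70 groups of 4 libraries examined, 1 had a library that stood apart, where 3.5 would be met by chance at 1 in 20. The level of Mmrn2 was 28.5 CPM in CTR replicate 2, against 18.9 to 20.3 CPM in the other CTR libraries. That library is the one through which the Mmrn2 groups overlapped.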

How the results depend on the processing

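Unc5b gave log2 fold changes of -1.63 to -1.54 under the scalings, tools and filters that kept it. It had no value with at least 10 counts required in every library, since its counts are lower. The median of the reference markers moved from 0.07 to 0.26 with at least 10 counts, to 0.17 with DESeq2 and to 0.17 with limma-trend, and ranged from 0.00 to 0.20 with each library left out. The number of members called higher was 2 under the other scalings and tools, 3 with at least 10 counts in every library (Plvap added), 4 with no filter (Flt1, Esam, Selp and Lyve1) and 8 with an unadjusted p, and 0 to 2 with each library left out. The number called lower was 0 throughout, and 4 with an unadjusted p. Over all genes, 92 were called, against 351 with no filter and 42 to 135 with each library left out (42 without CTR replicate 1, 60 without CAC replicate 3). With no filter, edgeR's adjusted p fell for some genes with many counts, such as Id2 (0.111 to 4.16e-05) and Pparg (0.261 to 0.000372). It rose for others, such as Pecam1 (0.426 to 0.542). Values given with low-count genes kept are alternatives to the main test. The causes were not tested. The replicate block gave 140 calls over all genes and 2 higher members. Same-numbered libraries did not deviate together, with correlations of 0.031, -0.023, 0.028 and 0.036, and differently numbered ones gave -0.053 to 0.036. No pairing by number was seen, but 4 libraries per group cannot exclude it. The 13 members with too few counts were left out of the main test by the filter. With low-count genes kept, Selp was the only one of them called by edgeR. Whether deeper sequencing would show differences in the others was not tested.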
